A study of Mus musculus with 10 samples.

Results

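Alx1, Alx4, Pax3, Pax7, Lhx6, Lhx8, Six2, Prrx1 and Prrx2 are 9 homeobox genes of the frontonasal and pharyngeal arch neural crest. They were taken by name as a list drawn up with earlier results of these data known, by no threshold on a measured value, and all 9 were found once among the 49671 genes of the count table. RNA was sequenced from GFP-positive cells sorted from single mouse embryos at embryonic day 10.5, with 1 library per embryo, 5 embryos per genotype and a mixed 129/Sv and C57BL/6 strain background. The p53-activated embryos were Wnt1Cre;Trp53LSL-25,26/+;R26mTmG/+, in which Wnt1-Cre releases a stabilised p53 protein from the engineered one of the Trp53 alleles. Littermates with normal Trp53, Wnt1Cre;Trp53+/+;R26mTmG/+, served as control embryos and carried the same recombinase and reporter. Wnt1-Cre acts in the dorsal neural tube as well as in the neural crest that leaves it, so the sorted cells can hold neural tube cells, and no dissection of the head is stated, so crest of other regions can be in each library too.

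Homeobox genes encode transcription factors that bind DNA through a homeodomain and give cells of an embryonic field their position and identity. In the head, neural crest cells that reach the frontonasal process switch on Alx genes and Six2, those on the oral side of the first arch switch on Lhx6 and Lhx8, and Prrx genes are used widely across the facial and limb mesenchyme. Pax3 and Pax7 act earlier, in the dorsal neural tube and in the crest that emerges from it.

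The engineered genotype was visible in the RNA. Cdkn1a, a p53 target that encodes the cell cycle inhibitor p21, lay between 90.8 and 117 CPM (counts scaled to a common library size by TMM) in p53-activated embryos and between 5.82 and 9.57 CPM in control embryos. Trp53 lay between 26.2 and 34.1 CPM in p53-activated embryos and between 12.3 and 24.6 CPM in control embryos. Library totals were 14644162 to 28379562 counts for p53-activated and 12368058 to 23514828 counts for control embryos, and single members had 52 to 3118 counts per library. Of the 10 markers fixed for crest mesenchyme, edgeR called 0 (1 at an unadjusted p under 0.05) and DESeq2 0, and their summed level was 1249 to 1607 CPM in p53-activated and 1269.8 to 1543 CPM in control libraries. The 10 neuron markers summed to 349.8 to 559.5 CPM in p53-activated and 690.4 to 908 CPM in control libraries. All 10 had a log2 fold change below 0, with a median of -0.90, and edgeR called 9 of them lower and DESeq2 10. Without control replicates 1 and 2 edgeR called 7 lower, with a median of -0.97.

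Control replicates 1 and 2 stood apart from the other 8 libraries in genes outside the list. Their ratios of the embryonic globin counts Hbb-y and Hbb-bh1, which shift as blood matures, were 4.97 and 2.69, against 1.59 to 2.08 in the others. Their levels of Lin28a, a gene that is switched off as development proceeds, were 2.96 and 6.21 CPM, against 10.8 to 24.8 CPM. The same 2 libraries had the highest control levels of 6 of the 9 members, so the fold changes and ratios of the members, and the calls among related genes, are also given without them.

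The promoters of Prrx1, Prrx2 and Six2 are shown for 2 reasons. The Prrx genes are close paralogues that differed in their call. Six2 was the only one of the matched members whose window held the palindrome P3 (TAAT, any 3 bases, then ATTA). Paired-class homeodomains such as those of the Alx and Prrx proteins bind this kind of site as dimers. RefSeq promoter windows on GRCm38.p6, from 250 bases before to 50 bases after an annotated start, were found for 6 of the 9 members, not for Alx1, Alx4 and Pax3. Each is written 5′ to 3′ on the strand of the gene, with capitals for matches on either strand to the homeodomain core TAATTA, to the palindrome P3, to the TATA box TATAAA or to the GC box GGGCGG, none of which overlapped another here. They lie at chr1:163313601-163313900 on the minus strand for Prrx1, chr2:30845117-30845416 on the plus strand for Prrx2 and chr17:85688205-85688504 on the minus strand for Six2.
Prrx1: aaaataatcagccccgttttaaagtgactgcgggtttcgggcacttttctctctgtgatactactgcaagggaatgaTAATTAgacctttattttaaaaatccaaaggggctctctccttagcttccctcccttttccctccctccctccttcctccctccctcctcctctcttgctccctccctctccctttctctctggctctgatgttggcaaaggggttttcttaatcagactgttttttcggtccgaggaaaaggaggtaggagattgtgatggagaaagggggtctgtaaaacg
Prrx2: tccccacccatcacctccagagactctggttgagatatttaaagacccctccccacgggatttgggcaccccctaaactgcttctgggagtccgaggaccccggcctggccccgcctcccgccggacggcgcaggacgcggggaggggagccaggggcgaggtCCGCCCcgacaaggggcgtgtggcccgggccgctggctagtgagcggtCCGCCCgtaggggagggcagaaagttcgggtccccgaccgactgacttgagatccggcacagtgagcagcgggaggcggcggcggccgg
Six2: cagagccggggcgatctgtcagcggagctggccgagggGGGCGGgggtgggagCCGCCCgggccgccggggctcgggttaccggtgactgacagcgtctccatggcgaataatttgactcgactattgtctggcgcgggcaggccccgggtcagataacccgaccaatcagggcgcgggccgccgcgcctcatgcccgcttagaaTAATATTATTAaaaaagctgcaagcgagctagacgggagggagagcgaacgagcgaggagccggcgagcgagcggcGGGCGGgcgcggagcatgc
The Prrx1 window had a GC content of 47.7%, a ratio of observed to expected CpG of 0.36, and 1 TAATTA, which 5.29% of all 32851 windows hold. The Prrx2 window had a GC content of 70.3%, a CpG ratio of 0.756 and 2 copies of GGGCGG, which 35.7% of windows hold. The Six2 window had a GC content of 67.3%, a CpG ratio of 1.13, 3 copies of GGGCGG and 1 palindrome P3, which 0.487% of windows hold and which began at -45 from the start. The medians over all windows were a GC content of 52.7% and a CpG ratio of 0.384. TATAAA, present in 13.6% of windows, was in none of the 3. A match is a run of letters and says nothing of which protein binds it.

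Prrx2 was the only one of the 9 genes to pass the test, and it fell. Prrx1 and Prrx2 encode paired-related homeodomain proteins of facial and limb mesenchyme, and mice that lack both have severe defects of the lower jaw and limbs. Prrx2 (ENSMUSG00000039476, chromosome 2 from 30834972 to 30881251 on GRCm38) had 89.2, 78.7, 89.5, 83.0 and 71.5 CPM in p53-activated replicates 1 to 5, against 136, 122, 105, 93.9 and 91.4 CPM in control replicates 1 to 5. Every p53-activated embryo lay below every control embryo, although the gap between the groups was narrow. The means were 82.4 ± 7.57 CPM in p53-activated and 109.6 ± 18.9 CPM in control embryos (SD, n = 5 each). The log2 fold change was -0.41 ± 0.11 (SE; edgeR quasi-likelihood test, adjusted p = 0.0386). The authors' deposited table gave Prrx2 a log2 fold change of -0.39 with a standard error of 0.12 and an adjusted p of 0.0198, and it was also the 1 member called there, where 10.8% of 15089 genes were.

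The call of Prrx2, at an edgeR adjusted p of 0.0386, was near the threshold and was lost when single libraries of either genotype were left out. Such fits also have fewer embryos. Its adjusted p was 0.0752, 0.102 and 0.0542 without control replicates 1, 2 and 3, and 0.0853, 0.0571, 0.0582 and 0.106 without p53-activated replicates 2, 3, 4 and 5, while the log2 fold change stayed between -0.47 and -0.32 over all 10 such fits. Without both control replicates 1 and 2 it was -0.23 ± 0.10 (adjusted p = 0.196). These were the highest control values of Prrx2, so leaving them out shrinks its fall by construction. Without both p53-activated replicates 4 and 5 the log2 fold change was -0.34 ± 0.13 (adjusted p = 0.16). In that fit 0 of the 9 members were called, against 5.14% of 15067 genes. In RNA from a sorted pool, fewer cells of a type and less RNA per cell cannot be told apart. The mesenchyme markers had summed levels that overlapped between the genotypes, but Vim alone gave 766 to 989 CPM of the sum in p53-activated and 750 to 972 CPM in control libraries. Col1a2, a collagen gene of the same list, was at 81.9 to 229 CPM in p53-activated libraries, with replicate 4 the highest. It was at 185 and 170.2 CPM in control replicates 1 and 2, against 67.2 to 90.2 CPM in the other 3 control libraries. The smallest p values of this list went in opposite directions, and neither gene passed. Col3a1 was at a log2 fold change of 0.64 ± 0.27 (edgeR adjusted p = 0.198) and Twist2 at -0.32 ± 0.16 (adjusted p = 0.265). The median of the list was -0.12. The neuron markers were lower in p53-activated embryos, and the part of neither list in the level of Prrx2 was tested.

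Prrx1 (ENSMUSG00000026586, chromosome 1 from 163245119 to 163313710) had 76.3, 89.1, 69.7, 77.3 and 77.4 CPM in p53-activated replicates 1 to 5, against 92.3, 111, 80.9, 65.9 and 69.1 CPM in control replicates 1 to 5. The groups overlapped, and all 5 p53-activated embryos lay within the wider control range, most of them toward its lower end. Its log2 fold change of -0.10 ± 0.13 did not pass (edgeR adjusted p = 0.692). It was 0.02 without control replicate 2 and 0.11 ± 0.10 (adjusted p = 0.596) without both control replicates 1 and 2, so its sign was not stable.

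Of all 14528 genes tested, 7.23% were called at an edgeR adjusted p under 0.05, with 4.49% higher and 2.74% lower in p53-activated embryos, and 8.07% had no overlap between the groups. With upper-quartile scaling the split of calls was 576 higher and 538 lower, against 652 and 398 with TMM. Among the 9 members 1 was called and 1 had no overlap, a share near that background. Prrx2, Pax7 and Lhx6 had an unadjusted p under 0.05, as did 22.6% of all tested genes. Log2 fold changes were above 0 for 5 members and below 0 for 4, with a median of 0.18 against -0.01 over all tested genes.

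**Figure D1:**
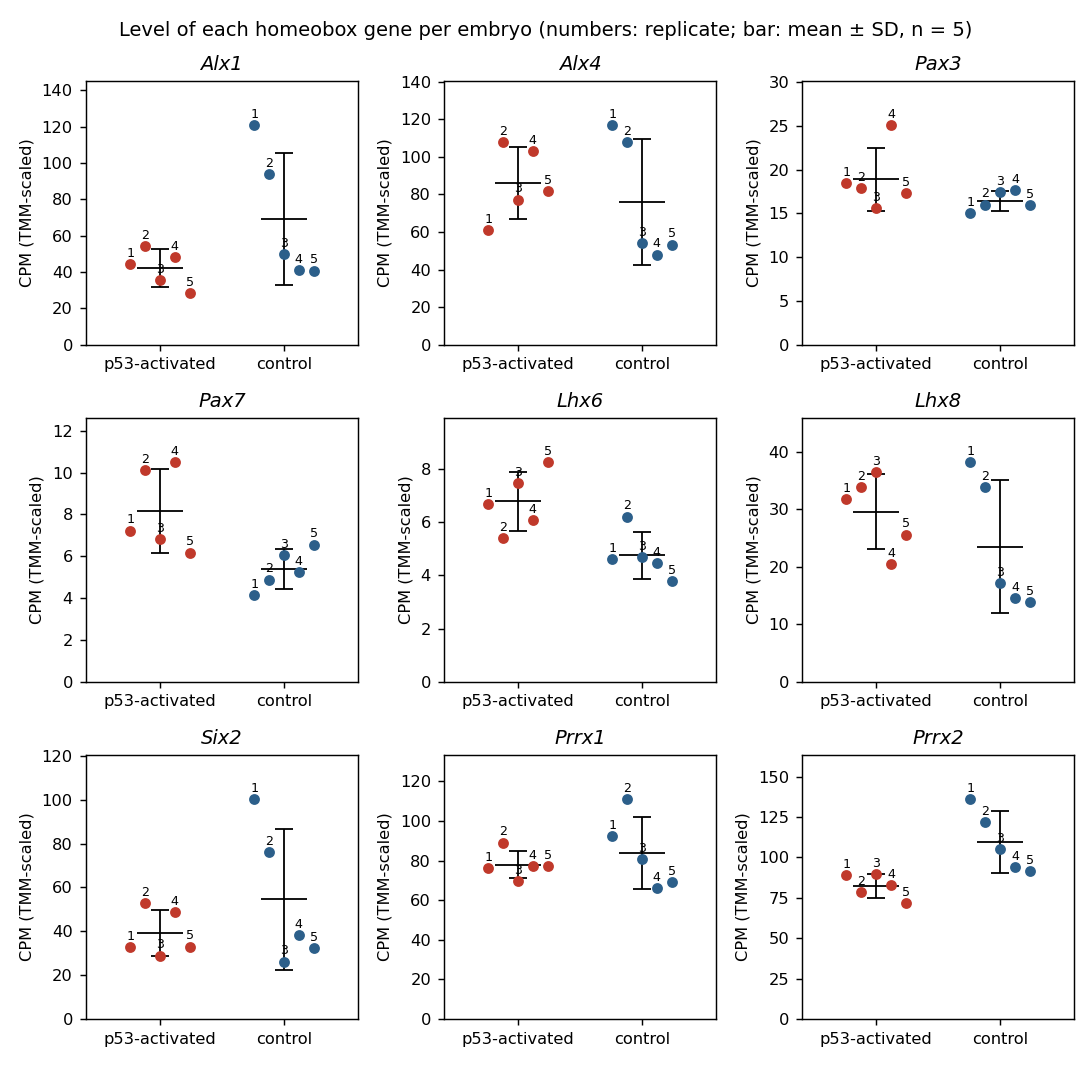
CPM (TMM-scaled, axes from 0) of each homeobox gene in every embryo, with p53-activated embryos left and control embryos right, points numbered by replicate and bars for the mean ± SD (n = 5 each). Control replicates 1 and 2 lie above the other 3 control embryos for Alx1, Alx4, Lhx8, Six2, Prrx1 and Prrx2, and Prrx2 is the gene whose groups do not overlap.

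Alx1 and Alx4, the aristaless-like genes of the frontonasal mesenchyme whose loss causes frontonasal dysplasia, did not pass singly. Alx1 (ENSMUSG00000036602, chromosome 10 from 102998707 to 103030215) had 44.5, 54.4, 35.6, 48.4 and 28.2 CPM in p53-activated replicates 1 to 5, against 121, 93.9, 49.7, 41.2 and 40.8 CPM in control replicates 1 to 5. Only control replicates 1 and 2 rose clear of the p53-activated embryos, while control replicates 3, 4 and 5 lay among them. The log2 fold change was -0.71 ± 0.34 (edgeR adjusted p = 0.248), the largest in size among the members, and it was -0.06 ± 0.18 (adjusted p = 0.912) without both control replicates 1 and 2. Of the exon length of Alx1, 4.22% is shared with the long non-coding RNA gene Gm17028 on the same strand, so a part of its counts is uncertain.

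Alx4 (ENSMUSG00000040310, chromosome 2 from 93642384 to 93681339) had 60.9, 108, 77.3, 103 and 81.6 CPM in p53-activated replicates 1 to 5, against 117, 108, 54.0, 47.9 and 53.3 CPM in control replicates 1 to 5. The p53-activated embryos filled the gap between the high and the low control embryos. With all libraries the log2 fold change was 0.18 ± 0.28 (edgeR adjusted p = 0.765). Without both control replicates 1 and 2 it was 0.74 ± 0.16 and passed (adjusted p = 0.0232). These were the highest control values of Alx4, so leaving them out raises its fold change by construction.

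The ratio of the Alx pair did not overlap between the genotypes, and how often other gene pairs lack overlap was not counted. The count of Alx4 over that of Alx1, a ratio within 1 library that no scaling of libraries can move, was 1.37, 1.98, 2.17, 2.12 and 2.89 in p53-activated replicates 1 to 5, against 0.963, 1.15, 1.09, 1.16 and 1.31 in control replicates 1 to 5. All 5 p53-activated embryos lay above all 5 control embryos, narrowly for p53-activated replicate 1 (1.37, against 1.31 in control replicate 5). Control replicates 1 and 2 lay with the other control embryos here although they stood apart in the level of each gene. The mean log2 ratio was 1.03 ± 0.39 in p53-activated and 0.17 ± 0.16 in control embryos (SD, n = 5 each), a difference of 0.86 ± 0.19 (SE) or 1.82-fold. A two-sided exact permutation test gave p = 0.00794, the smallest that 5 against 5 allows, and 0.0317 adjusted over the 4 paralogue pairs compared. Without both control replicates 1 and 2 the difference was 0.79 (exact p = 0.0357, adjusted 0.107). Without control replicate 1, 3 or 4 it was 0.80, 0.85 and 0.87, each with an adjusted exact p of 0.0635, and without both p53-activated replicates 4 and 5 it was 0.68 (adjusted exact p = 0.0714).

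Among the other pairs none passed after adjustment. Prrx2 over Prrx1 was 1.17, 0.883, 1.28, 1.07 and 0.925 in p53-activated replicates 1 to 5, against 1.47, 1.10, 1.30, 1.42 and 1.32 in control replicates 1 to 5. Control replicate 2 lay among the p53-activated embryos, and 3 of the 5 p53-activated embryos lay below every control embryo. The log2 ratio differed by -0.32 ± 0.12 (exact permutation p = 0.0397, adjusted 0.0529). With 1 library left out the adjusted exact p ran from 0.0317 to 0.106 and passed in 2 of 10 cases, without control replicate 2 (0.0317) or p53-activated replicate 3 (0.0476). The difference without both control replicates 1 and 2 was -0.35 (adjusted exact p = 0.107), and without both p53-activated replicates 4 and 5 it was -0.26 (0.19).

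**Figure D2:**
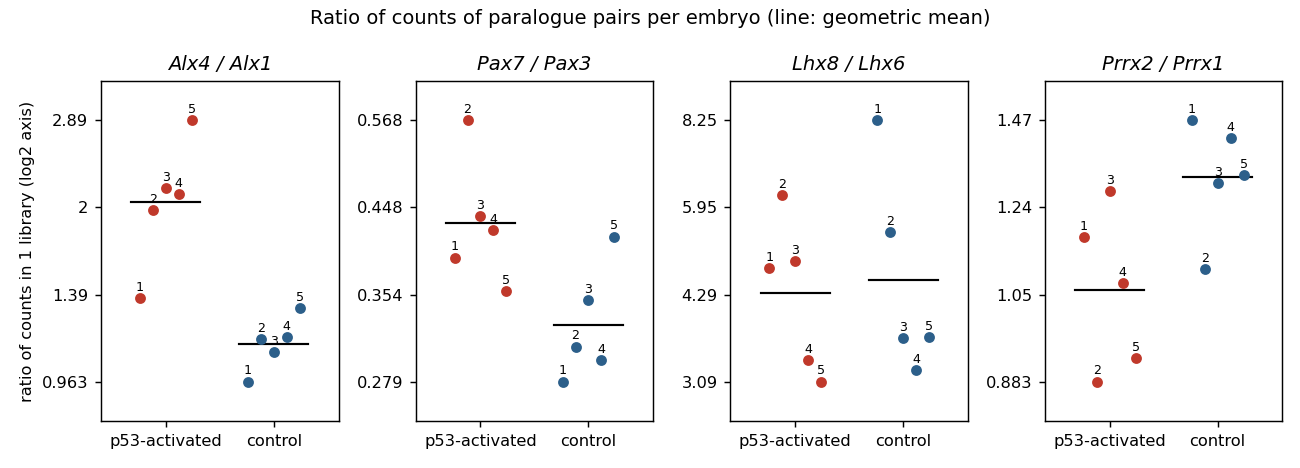
Ratio of the counts of each paralogue pair within a library (log2 axis, a different range in each panel), for p53-activated embryos left and control embryos right, with points numbered by replicate and a line at the geometric mean (n = 5 each). Alx4 over Alx1 is the pair without overlap, from 1.37 to 2.89 in p53-activated and from 0.963 to 1.31 in control embryos.

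Six2, a gene of the frontonasal mesenchyme that also keeps kidney progenitors undifferentiated, varied most among control embryos. Six2 (ENSMUSG00000024134, chromosome 17 from 85684277 to 85688274) had 32.8, 52.8, 28.9, 48.6 and 33.0 CPM in p53-activated replicates 1 to 5, against 100.3, 76.1, 26.2, 38.2 and 32.3 CPM in control replicates 1 to 5. The p53-activated embryos overlapped control replicates 3, 4 and 5 and lay below the other 2 control embryos. The coefficient of variation was 27.3% in p53-activated and 58.7% in control embryos. The log2 fold change was -0.47 ± 0.38 (edgeR adjusted p = 0.532), and without both control replicates 1 and 2 its sign turned, to 0.29 ± 0.21 (adjusted p = 0.487).

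Lhx6 and Lhx8 encode LIM homeodomain proteins of the oral mesenchyme of the first arch, where they are switched on near the FGF8 source and are needed for teeth and palate. Lhx8 (ENSMUSG00000096225, chromosome 3 from 154306294 to 154330659) had 31.7, 33.8, 36.4, 20.4 and 25.6 CPM in p53-activated replicates 1 to 5, against 38.2, 33.8, 17.2, 14.5 and 13.9 CPM in control replicates 1 to 5. Every p53-activated embryo lay above control replicates 3, 4 and 5, and none lay above control replicate 1. With all libraries the log2 fold change was 0.33 ± 0.30 (edgeR adjusted p = 0.573). Without both control replicates 1 and 2 it was 0.96 ± 0.19 and passed (adjusted p = 0.00783). These were the highest control values of Lhx8, so leaving them out raises its fold change by construction.

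Lhx6 (ENSMUSG00000026890, chromosome 2 from 36081953 to 36105408) had 6.68, 5.41, 7.46, 6.09 and 8.26 CPM in p53-activated replicates 1 to 5, against 4.61, 6.21, 4.69, 4.47 and 3.79 CPM in control replicates 1 to 5. Control replicate 2 was the only control embryo within the p53-activated range. Its fold change on the log2 scale was 0.51 ± 0.21 (edgeR adjusted p = 0.155), and 0.64 ± 0.24 (adjusted p = 0.143) without both control replicates 1 and 2. An overlap with the small RNA gene Gm27953 covers 2.16% of its exon length. Lhx8 over Lhx6 ran from 3.09 to 6.22 in p53-activated and from 3.23 to 8.25 in control embryos, and the log2 ratio differed by -0.07 ± 0.31 (exact permutation p = 0.81, adjusted 0.81), with a sign that was not stable. It was positive without control replicate 1 (0.14), p53-activated replicate 4 (0.02) or p53-activated replicate 5 (0.04), without both control replicates 1 and 2 (0.30), and without both p53-activated replicates 4 and 5 (0.21).

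Pax3 and Pax7 encode proteins with a paired domain and a homeodomain, and they mark the dorsal neural tube and the crest that arises from it. Loss of Pax3 gives the Splotch mouse and, in people, Waardenburg syndrome. Pax7 (ENSMUSG00000028736, chromosome 4 from 139737062 to 139833528) had 7.23, 10.1, 6.81, 10.5 and 6.17 CPM in p53-activated replicates 1 to 5, against 4.15, 4.88, 6.06, 5.23 and 6.56 CPM in control replicates 1 to 5. In 4 of the 5 p53-activated embryos Pax7 lay above every control embryo, and p53-activated replicate 5 lay below control replicate 5. The log2 fold change was 0.61 ± 0.21 and did not pass (edgeR adjusted p = 0.0986; 0.0565 with DESeq2), and it was 0.46 ± 0.24 (adjusted p = 0.308) without both control replicates 1 and 2.

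Pax3 (ENSMUSG00000004872, chromosome 1 from 78101267 to 78197134) had 18.5, 17.9, 15.6, 25.1 and 17.3 CPM in p53-activated replicates 1 to 5, against 15.0, 16.0, 17.4, 17.7 and 15.9 CPM in control replicates 1 to 5. Its control values were the tightest of all members, with a coefficient of variation of 7.11%, against 19.2% in p53-activated embryos, where replicate 4 was high. Its fold change on the log2 scale was 0.21 ± 0.14 (edgeR adjusted p = 0.437), 0.15 ± 0.16 (adjusted p = 0.669) without both control replicates 1 and 2, and 0.08 without p53-activated replicate 4. Pax7 over Pax3 was 0.391, 0.568, 0.438, 0.421 and 0.357 in p53-activated replicates 1 to 5, against 0.279, 0.307, 0.348, 0.296 and 0.414 in control replicates 1 to 5. Here 3 p53-activated embryos lay above every control embryo, and the log2 ratio differed by 0.40 ± 0.15 (exact permutation p = 0.0317, adjusted 0.0529). With 1 library left out the adjusted exact p ran from 0.0317 to 0.106 and passed in 2 of 10 cases, without control replicate 5 (0.0317) or p53-activated replicate 5 (0.0476). The difference without both control replicates 1 and 2 was 0.30 (adjusted exact p = 0.214), and without both p53-activated replicates 4 and 5 it was 0.50 (0.107).

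Both Pax genes are also expressed in somites and their muscle progenitors. The 10 somite and muscle markers summed to 45.6 to 109 CPM in p53-activated and 110.2 to 163 CPM in control libraries, with Myf5 under 1 CPM everywhere and 2 of 9 tested genes lower, Myh3 (-1.28 ± 0.21, edgeR adjusted p = 0.00106) and Myl1 (-1.55 ± 0.41, adjusted p = 0.0307), while DESeq2 called 5. The 12 neural tube markers summed to 1156 to 1543 CPM in p53-activated and 978 to 1477 CPM in control libraries, with control replicates 1 and 2 the lowest of the control libraries. One of the 12, the dorsal progenitor gene Olig3, rose (0.85 ± 0.21, adjusted p = 0.0237), and 1, the glial precursor gene Fabp7, fell (-0.78 ± 0.16, adjusted p = 0.00767). Neither passed without both control replicates 1 and 2. The part of either list in the Pax levels was not tested.

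**Figure D3:**
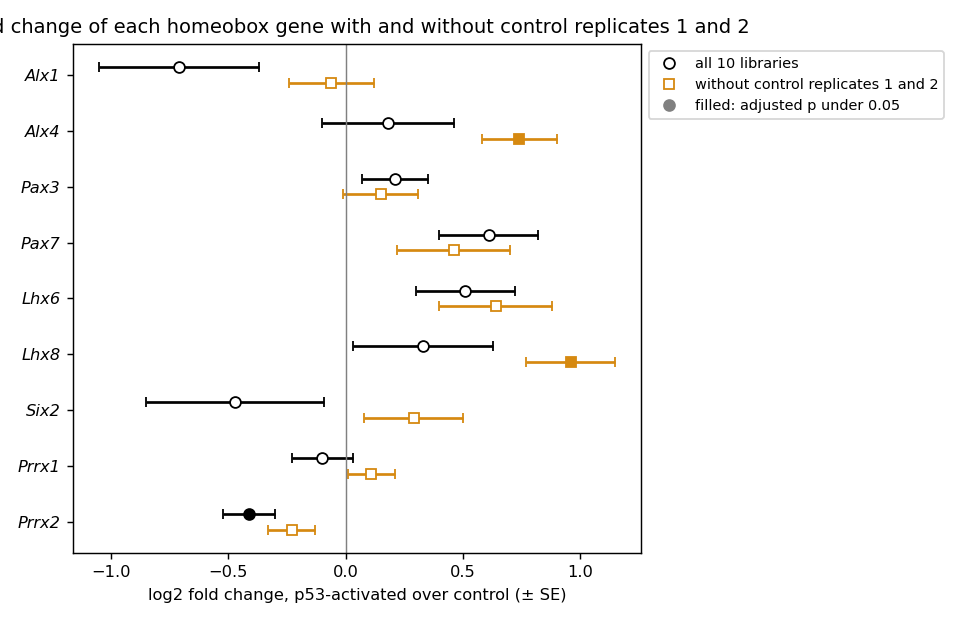
Log2 fold change of each homeobox gene, p53-activated over control, with its standard error, from all 10 libraries (circles) and without control replicates 1 and 2 (squares), with filled marks for an edgeR adjusted p under 0.05. Prrx2 is filled with all libraries, Alx4 and Lhx8 are filled without the 2 control libraries, and Six2 and Prrx1 lie on opposite sides of 0 in the 2 fits.

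Leaving out control replicates 1 and 2 moved the calls to other members. In that fit 4.36% of 15063 genes were called, 3.07% higher and 1.29% lower. Alx4 and Lhx8 were called higher and no member was called lower. Both genes had their highest control levels in the 2 libraries left out, which were chosen with these levels known. Their calls in this fit follow in part from that choice and are no separate support. These 2 libraries had on average 2.73 times the Six2 level of the other 3 control libraries, 2.45 times that of Alx1, 2.37 times that of Lhx8 and 2.17 times that of Alx4. The corresponding ratios were 1.41 for Prrx1, 1.33 for Prrx2, 1.25 for Lhx6, 0.908 for Pax3 and 0.758 for Pax7. Stage-linked genes moved with the same libraries, as the globin ratio and Lin28a show, and their part in the members' levels was not tested.

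Levels were set side by side between genes after division by the length of all annotated exons of a gene. That length can exceed the length of the transcripts expressed, which was not measured. It was 11066 bases for Prrx1 and 1961 bases for Prrx2, so the order below depends on it. As CPM per kilobase of annotated exon, Prrx2 was the most abundant, at 42.0 ± 3.86 in p53-activated and 55.9 ± 9.65 in control embryos (SD, n = 5 each), followed by Six2 at 18.5 ± 5.05 in p53-activated and 25.8 ± 15.1 in control embryos. Lhx6, at 1.41 ± 0.233 in p53-activated and 0.989 ± 0.185 in control embryos, and Pax7, at 1.40 ± 0.343 in p53-activated and 0.917 ± 0.163 in control embryos, were the least abundant. In p53-activated embryos the order was Prrx2, Six2, Alx4, Lhx8, Alx1, Prrx1, Pax3, Lhx6 and Pax7, and in control embryos Alx1 came directly after Six2 and before Alx4 and Lhx8. In both genotypes Prrx1 and Pax3, and Pax3 and Lhx6, were neighbours whose ranges over embryos did not meet, while Lhx6 and Pax7 overlapped, as did each pair of neighbours from Six2 to Prrx1. Prrx2 and Six2 were apart in p53-activated embryos and overlapped in control embryos.

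**Figure D4:**
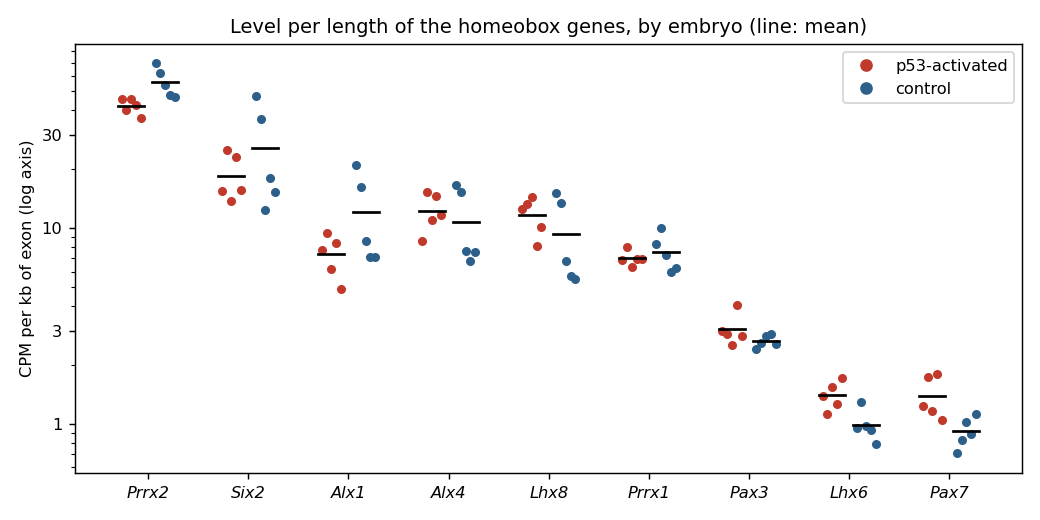
Level per length of the 9 homeobox genes, as CPM per kilobase of annotated exon on a log axis, with p53-activated embryos left of control embryos for each gene, 1 point per embryo and a line at the mean (n = 5 each). Prrx2 is highest, and Pax3, Lhx6 and Pax7 lie below the other 6 genes in both genotypes.

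How the members varied together was described by Pearson's r of log2 CPM over all 10 libraries after the mean of each genotype was removed, with no p because the closest of many genes was picked. The closest fellow member was Six2 for both Alx1 (r = 0.90) and Alx4 (0.92), Alx4 for Six2 (0.92) and Prrx1 (0.83), Prrx2 for Lhx8 (0.85) and Lhx8 for Prrx2 (0.85). Control replicates 1 and 2 carried much of this, since over the other 8 libraries the same pairs had r from 0.47 to 0.65. Pax3 and Pax7 were each closest to the other, with r of 0.63 over 10 and 0.58 over 8 libraries, and Lhx6 was closest to Lhx8, with 0.43 and 0.10. Over all tested genes the most similar were Hdac5, a histone deacetylase gene, for Alx1 (0.97, and 0.92 over 8 libraries), and Bcas3 for Alx4 (0.97 and 0.91). They were Tmem131 for Pax3 (0.96 and 0.95), Prdm12, a gene of sensory neuron precursors, for Pax7 (0.93 and 0.95), Gm13182 for Lhx6 (0.89 and 0.89), Mief2 for Lhx8 (0.99 and 0.98), Tmem253 for Prrx1 (0.97 and 0.96) and Tsga13 for Prrx2 (0.97 and 0.90).

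Other genes of the same families and of facial patterning were read from the same fit. Of 19 relatives in the families of Alx1, Pax3, Lhx6 and Six2, 17 were tested, Pax4 and Pax8 being under 1 CPM everywhere, and edgeR and DESeq2 both called 0 (4 and 5 at an unadjusted p under 0.05), with a median log2 fold change of -0.35. When control replicates 1 and 2 were left out edgeR also called 0, with 0 at an unadjusted p under 0.05 and a median of -0.19. The smallest p values with all libraries belonged to the LIM homeobox genes Lhx9 (-0.80 ± 0.30, edgeR adjusted p = 0.12) and Lhx5 (-0.48 ± 0.18, adjusted p = 0.132). Without both p53-activated replicates 4 and 5, where 2.14% of genes were called lower, there were 3 lower calls, Pax1 (-1.89), Lhx9 (-1.42) and Lhx2 (-1.06). With all libraries Pax1 was at -0.90, Lhx9 at -0.80 and Lhx2 at -0.49, and none passed. The pair left out was chosen with earlier results of these data known, so these calls are no separate support. Pax1 and Lhx5 share exon bases with antisense genes, and their counts are uncertain to that extent.

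Of 16 other patterning factors of the face and arches 15 were tested, and edgeR called 0 (5 at an unadjusted p under 0.05) and DESeq2 2, with a median log2 fold change of 0.25. The closest to a call were Gsc, a homeobox gene of the lower jaw and middle ear (-1.10 ± 0.31, edgeR adjusted p = 0.057), and Dlx2, a homeobox gene of both jaws (0.66 ± 0.21, adjusted p = 0.0737). Gsc ran from 19.4 to 32.8 CPM in p53-activated and from 27.0 to 84.5 CPM in control embryos. With control replicates 1 and 2 left out, where 3.07% of genes were called higher, the list had 1 call and a median of 0.35. The call was Dlx1, which was higher (0.69, edgeR adjusted p = 0.00702). With all libraries Dlx1 was at 0.39 ± 0.17 (adjusted p = 0.192). The libraries left out were chosen with earlier results of these data known, so this call is no separate support. Of the exon length of Dlx1, 6.21% is shared with the antisense gene Dlx1as, so a part of its counts is uncertain. Of 14 cofactor genes, the TALE homeobox genes that pair with other homeodomain proteins, the Eya partners of Six2 and its relatives and the Ldb partners of LIM proteins, edgeR called 0 (6 at an unadjusted p under 0.05) and DESeq2 2, with a median of -0.10. Pknox2 (0.66 ± 0.20, adjusted p = 0.0604) and Meis3 (-0.38 ± 0.12, adjusted p = 0.0672) had the smallest p. In the fit without control replicates 1 and 2 edgeR again called 0 cofactor genes (5 at an unadjusted p under 0.05), with a median of -0.02.

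**Figure D5:**
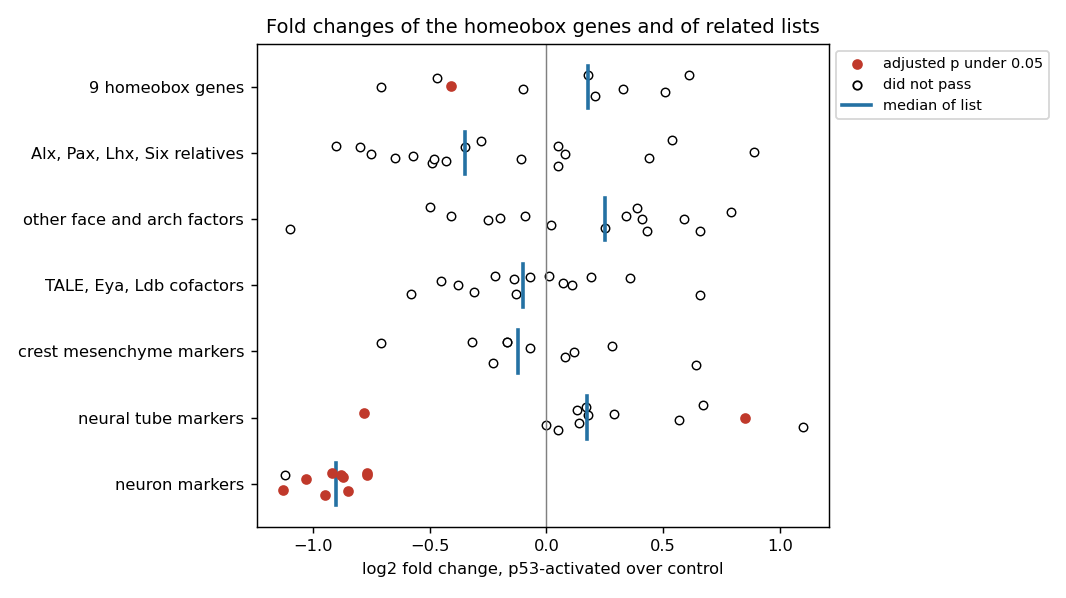
Log2 fold change, p53-activated over control with all 10 libraries, of every tested gene in the homeobox list, in 3 lists of related regulators and in 3 lists of cell type markers, with filled marks for an edgeR adjusted p under 0.05 and a line at each median (vertical scatter within a list has no meaning). The regulators have 1 filled mark, Prrx2, while 9 of the 10 neuron markers are filled and lie below 0.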

How the data were processed

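The deposited table holds raw gene counts by Ensembl identifier, and its columns carry the sample numbers of the labels. The build GRCm38 and the tools DESeq2 1.14.1, HTSeq 0.6.1, HISAT2 2.0.4 and SAMtools 1.3.1 are named by the submitters' processing notes, which give no roles. Neither strand setting nor annotation release of the counting is given in the sources used here. The authors' comparison table has, per the file headers, a mean normalized signal, the log2 fold change and its error, a test statistic (a score) and p-values before and after adjustment. Its direction was read from Cdkn1a, at 3.51 there.

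No row lacked a gene name. Genes were kept by filterByExpr (minimum count 10, minimum total 15), leaving 14528. Scaling was by TMM, and the test was edgeR 4.0.16's quasi-likelihood F-test (R 4.3.3, robust dispersions, no covariate), adjusted by the Benjamini-Hochberg method over all tested genes with a threshold of 0.05. Adjusted p is from this test unless named otherwise. SE is the fold change over the square root of F. Paralogue ratios used counts plus 0.5 and an exact permutation test on the absolute difference of mean log2 ratios. Log2 CPM used a prior count of 2. GENCODE M21 (GRCm38), which held 99.3% of the gene identifiers, gave lengths, positions and overlaps. The edgeR procedure was tested on simulated data with known changes. It recovered 34.2% of 1.5-fold, 62.1% of 2-fold and 95.2% of 4-fold changes, with 5 false calls among 128. The members had folds of 0.61 (Alx1) to 1.53 (Pax7), a range in which many true changes would be missed, so a gene not called can still differ.

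Alternatives were RLE, upper-quartile and total-count scaling, other filters, DESeq2 1.42.0, limma-voom (limma 3.58.1), non-robust dispersions, a replicate block, and leaving out libraries singly or in pairs. The members, the lists and the pairs of libraries left out were chosen with earlier results of these data known. Text names every member, Trp53, Cdkn1a and Mdm2 (47.3 ± 4.41 CPM in p53-activated and 24.5 ± 1.06 CPM in control embryos; SD, n = 5 each), called genes of a list or else the 2 with the smallest p, and the gene most like each member, of which the one for Six2 is not reported here. Libraries differed by more than sampling noise in every pair compared (chi-square over its degrees of freedom, 16.1 to 87.5). Each library is 1 embryo, and p-values measure the spread between embryos.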

Additional observations from a re-analysis of the deposited data

How the results depend on the processing

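Counts of calls over all genes were 1050 with all libraries, 1676 with DESeq2, 656 without both control replicates 1 and 2, and 636 to 1025 with 1 library left out, the lowest being 636, 652 and 692 without control replicate 2, p53-activated replicate 5 and control replicate 4. Calls among the 3 related lists, 0 of 46 tested, became 2 with upper-quartile scaling (Gsc and Meis3), 4 with DESeq2 (Gsc, Dlx2, Pknox2 and Meis3), 1 each with total counts, non-robust dispersions and the replicate block (Gsc), 1 without both control replicates 1 and 2 (Dlx1), 4 without both p53-activated replicates 4 and 5 (Lhx2, Dlx3, Lhx9 and Pax1), and 0 to 3 with 1 library left out. Prrx2 lost its call with limma-voom (-0.40, adjusted p = 0.0594), without both control replicates 1 and 2 (-0.23), without both p53-activated replicates 4 and 5 (-0.34, adjusted p = 0.16) and in 7 of the 10 fits with 1 library left out, at -0.47 to -0.32 in all of them. Without both control replicates 1 and 2 Alx4 (0.74) and Lhx8 (0.96) gained calls and Six2 (0.29) and Prrx1 (0.11) changed sign. With 1 library left out Prrx1 ran from -0.18 to 0.02. The Alx4 over Alx1 difference was 0.74 to 1.01 with 1 library left out, and lost its adjusted call in 3 of those, without both control replicates 1 and 2 (0.79) and without both p53-activated replicates 4 and 5 (0.68); with 3 embryos against 5 a single pair cannot go below an adjusted 0.0714. Pax7 over Pax3 ran from 0.30 to 0.49, Prrx2 over Prrx1 from -0.39 to -0.25 and Lhx8 over Lhx6 from -0.21 to 0.14, the last also at 0.30 without both control replicates 1 and 2 and 0.21 without both p53-activated replicates 4 and 5. The cause of these shifts was not tested. The remaining scalings, filters and tests left every member on the same side of 0 and of the threshold.

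Samples with the same replicate number did not deviate together (correlations of -0.05 to 0.11 over genes), so no pairing by number was seen. The labels do not say what the numbers mark, and these correlations cannot show whether embryos shared a litter. With a replicate block 804 genes were called, and Prrx2 was at -0.40 (adjusted p = 0.0434). No member's call changed under the block, but single values moved. The unadjusted edgeR p fell from 0.0619 to 0.0125 for Alx1 (-0.60 ± 0.20) and from 0.287 to 0.0449 for Lhx8 (0.43 ± 0.19). It rose from 0.0118 to 0.0266 for Pax7 and from 0.026 to 0.0539 for Lhx6. By its own number, only p53-activated replicate 3 correlated best with its control namesake. Lhx6 had as few as 52 counts in a library, the fewest of any member, and its values carry the most counting error.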
